A study of Mus musculus with 6 samples.

Results

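The cytosolic and mitochondrial heat-shock chaperones were examined as 10 genes listed by symbol: Hsp90ab1, Hsp90aa1, Hspa8, Hspa4, Hspa9, Hspd1, Hspe1, Hsph1, Dnajb1 and Hsf1. All 10 were among the 11779 genes of the deposited count table, and all 10 were among the 10869 that passed a filter on low counts. The cells were mouse long-term hematopoietic stem cells, bone marrow cells sorted as lineage-negative, Sca1+, c-Kit+, CD48- and CD150+, from females aged 8 weeks. The HET group (3 libraries, numbered 1, 3 and 4) had the genotype c-Mycfl/+Mx1Cre, in which 1 of the Myc alleles is floxed and the interferon-responsive Mx1 promoter drives Cre, and 3 injections of poly(I:C) at 6 mg/kg switched Cre on. The WT group (3 libraries, also numbered 1, 3 and 4) had the genotype c-Mycfl/+ and so carried the same floxed allele without Cre. Whether WT mice also received poly(I:C) is not stated, and the Mx1 promoter is not restricted to stem cells. Sample titles call the HET libraries KO. No label says that libraries came from separate mice, so p-values measure the spread between these libraries.

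Heat-shock chaperones bind unfolded protein and release it through cycles of ATP hydrolysis. In the cytosol, HSP70 takes substrates from J-domain proteins such as DNAJB1, HSP110 proteins exchange its nucleotide, and HSP90 finishes the folding of kinases and steroid receptors. In mitochondria, HSPA9 pulls imported chains through the membrane, and the HSP60 and HSP10 chaperonin encloses them. The transcription factor HSF1 raises many of these genes when proteins unfold, by binding heat-shock elements in their promoters. Blood stem cells keep protein synthesis low, and HSF1 activity is known to matter for them in culture. Several chaperone genes are also known as targets of MYC in proliferating cells.

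Promoters of the mitochondrial chaperonin pair and of Hsph1 are shown because matches to the binding letters of MYC or of HSF1 were found in them. RefSeq promoter windows (GRCm38.p6, from 250 bases before to 50 after a start) were held for 5 of the 10 members: Hspa4, Hspd1, Hspe1, Hsph1 and Dnajb1. The heat-shock element was searched as TTCNNGAANNTTC and its reverse complement GAANNTTCNNGAA, and the MYC and MAX recognition hexamer, the E-box, as CACGTG, which reads alike on both strands. The 250 bases before each start follow, 5′ to 3′ on the strand of the gene, with matches in capitals.
Hspe1, chr1:55087898-55088147, plus strand: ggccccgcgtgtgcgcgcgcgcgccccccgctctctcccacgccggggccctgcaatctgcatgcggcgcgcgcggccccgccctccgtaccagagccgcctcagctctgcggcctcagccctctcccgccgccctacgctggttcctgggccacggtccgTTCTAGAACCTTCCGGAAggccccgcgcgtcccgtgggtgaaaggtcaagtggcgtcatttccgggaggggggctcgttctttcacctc
Hspd1, chr1:55088244-55088493, minus strand: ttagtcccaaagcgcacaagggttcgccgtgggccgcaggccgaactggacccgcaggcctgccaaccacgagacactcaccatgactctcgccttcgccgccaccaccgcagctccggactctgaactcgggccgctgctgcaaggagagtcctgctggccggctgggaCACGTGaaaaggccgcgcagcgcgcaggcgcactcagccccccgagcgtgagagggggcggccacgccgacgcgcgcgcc
Hsph1, chr5:149636316-149636565, minus strand: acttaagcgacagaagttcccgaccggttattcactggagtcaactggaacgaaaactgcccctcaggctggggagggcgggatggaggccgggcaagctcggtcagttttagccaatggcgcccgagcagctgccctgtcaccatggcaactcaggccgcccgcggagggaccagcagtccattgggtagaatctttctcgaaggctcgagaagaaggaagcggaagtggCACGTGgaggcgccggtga
The capitals in Hspe1 are 2 overlapping heat-shock element matches, which begin at positions -89 and -84 from its start. A window for a second Hspd1 start holds the same site on the other strand. The capitals in Hspd1 and Hsph1 are single E-boxes, at -80 and -19. Hsph1 has a heat-shock element match after its start, at position 16 (TTCTGGAAAGTTC). Over all 32851 windows, 0.603% held a heat-shock element match and 7.15% an E-box. Hspa4 and Dnajb1 held neither by these letters. The windows of Hspa1a and Hspa1b, HSF1 targets outside the members that are described below, held neither as well. A match is a description of the letters and does not show binding, and a missing match does not show that a site is lacking.

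Library totals were between 4627452 and 9886223 counts in HET and between 4249490 and 5600856 in WT. Myc measured 293.8, 386.7 and 372.0 CPM in HET 1, 3 and 4, against 447.4, 427.4 and 541.8 CPM in WT 1, 3 and 4 (CPM, counts divided by the scaled library size). Every HET value lay below every WT value, although the edgeR p adjusted over all genes was 0.312. Of the sort markers, Kit lay between 1145 and 1258 CPM in HET and between 1091 and 1229 CPM in WT, and Slamf1 (CD150) between 57.0 and 84.0 CPM in HET and between 60.9 and 80.3 CPM in WT. Cd48 was between 3.67 and 8.96 CPM in HET and between 1.67 and 3.25 CPM in WT. Of 10 neutrophil and monocyte markers 9 were listed, and their summed level was 322 to 518 CPM in HET and 286 to 648 CPM in WT, highest in WT 3. The megakaryocyte and platelet markers (6 of 6 listed) summed to 900 to 1097 CPM in HET and 754 to 769 CPM in WT. Of these 6 markers only Itga2b had groups that did not overlap, at 364 to 561 CPM in HET and 263 to 316 CPM in WT. Pf4, Gp9, Gp1bb, Vwf and Ppbp overlapped between groups. The part of these cell types in the results below was not tested. In bulk RNA, fewer cells of a type and less RNA per cell cannot be told apart.

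The question for the chaperones was whether their transcripts differed in HET. None did by the test. Of the 10 members, 0 passed an adjusted p of 0.05 in edgeR's quasi-likelihood fit over all 10869 genes, where 28 genes (0.258%) passed. DESeq2 and limma-voom also called 0 of the 10. An unadjusted p under 0.05 was reached by 2 members, Hspa4 and Hsp90ab1, against 5.22% of all genes. In 0 of the 10 did the HET libraries lie wholly above or below the WT libraries, against 10.3% of all genes. The fold changes of 7 members were negative and of 3 positive. Their median log2 fold change was -0.15, beside 0.00397 over all genes tested. Without WT 3 that median was 0.02, with 4 of 10 values negative. WT 3 was the highest library for 7 of the 10, so leaving it out raises their values by construction. When any other library was left out, the median stayed negative, from -0.21 without WT 1 to -0.07 without HET 4.

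**Figure D1:**
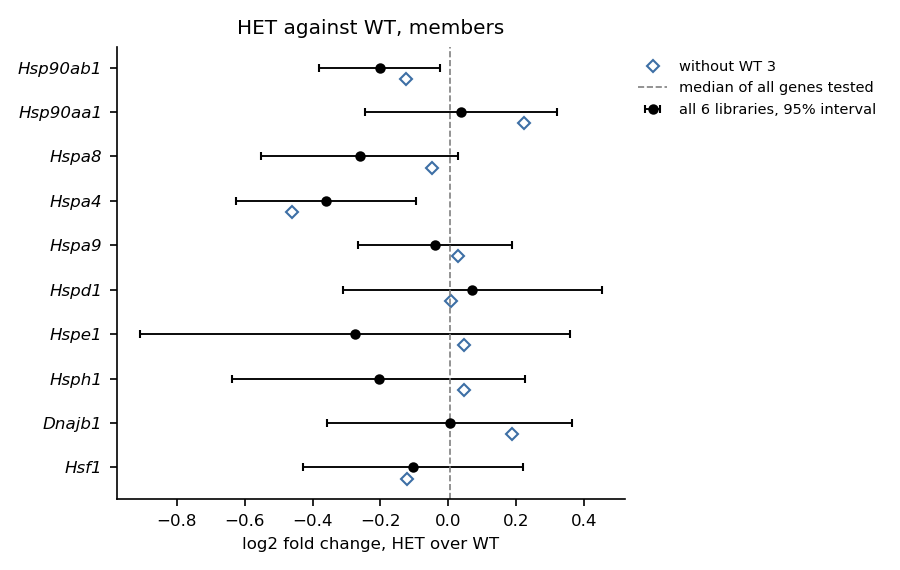
Log2 fold change of each member, HET over WT, from the edgeR fit. Black points and bars give the value and 95% interval with all 6 libraries, open diamonds the value without WT 3, and the dashed line the median of all genes tested. The Hspa4 and Hsp90ab1 intervals lie below 0, and without WT 3 the diamonds of Hspe1, Hsph1 and Hspa9 move to the other side of 0. WT 3 was the highest library for each of these genes whose diamond moves across 0, so leaving it out raises their values by construction.

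The cytosolic HSP90 pair is made of a constitutive form, HSP90 beta from Hsp90ab1, and an inducible form, HSP90 alpha from Hsp90aa1. Hsp90ab1 (ENSMUSG00000023944; GRCm38 chromosome 17, 45567775 to 45573271, minus strand) measured 5057, 5242 and 4521 CPM in HET 1, 3 and 4, against 5085, 6265 and 5697 CPM in WT 1, 3 and 4. The groups overlapped only through HET 3 and WT 1. Relative to WT, HET stood at 86.9%, with a 95% interval of 76.8% to 98.4%. The log2 fold change was -0.20 ± 0.09 (SE), with an unadjusted p of 0.0284 and an edgeR adjusted p of 0.844. Without WT 3 the log2 fold change was -0.13. Hsp90aa1 (ENSMUSG00000021270; chromosome 12, 110690605 to 110702728, minus strand) measured 229, 239 and 216 CPM in HET 1, 3 and 4, against 203, 276 and 187 CPM in WT 1, 3 and 4. The HET values fell inside the range set by WT 3 and WT 4 (log2 fold change 0.04 ± 0.14 SE, edgeR adjusted p = 0.995).

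Their ratio within a library needs no scaling. On the log2 scale, Hsp90aa1 over Hsp90ab1 counts was -4.46, -4.45 and -4.39 in HET 1, 3 and 4, against -4.65, -4.50 and -4.93 in WT 1, 3 and 4. All 3 HET ratios were above all 3 WT ratios, by a mean of 0.26. The exact two-sided permutation test gave p = 0.1, the smallest that 3 against 3 libraries allow (0.2 adjusted over the 2 ratios tested). Leaving out 1 library gave differences from 0.14, without WT 4, to 0.35, without WT 3. The HET ratios spread by 0.04 and the WT ratios by 0.21 (SD, n = 3 each). Depending on the library, Hsp90ab1 had 21.0 to 30.4 counts for each count of Hsp90aa1.

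**Figure D2:**
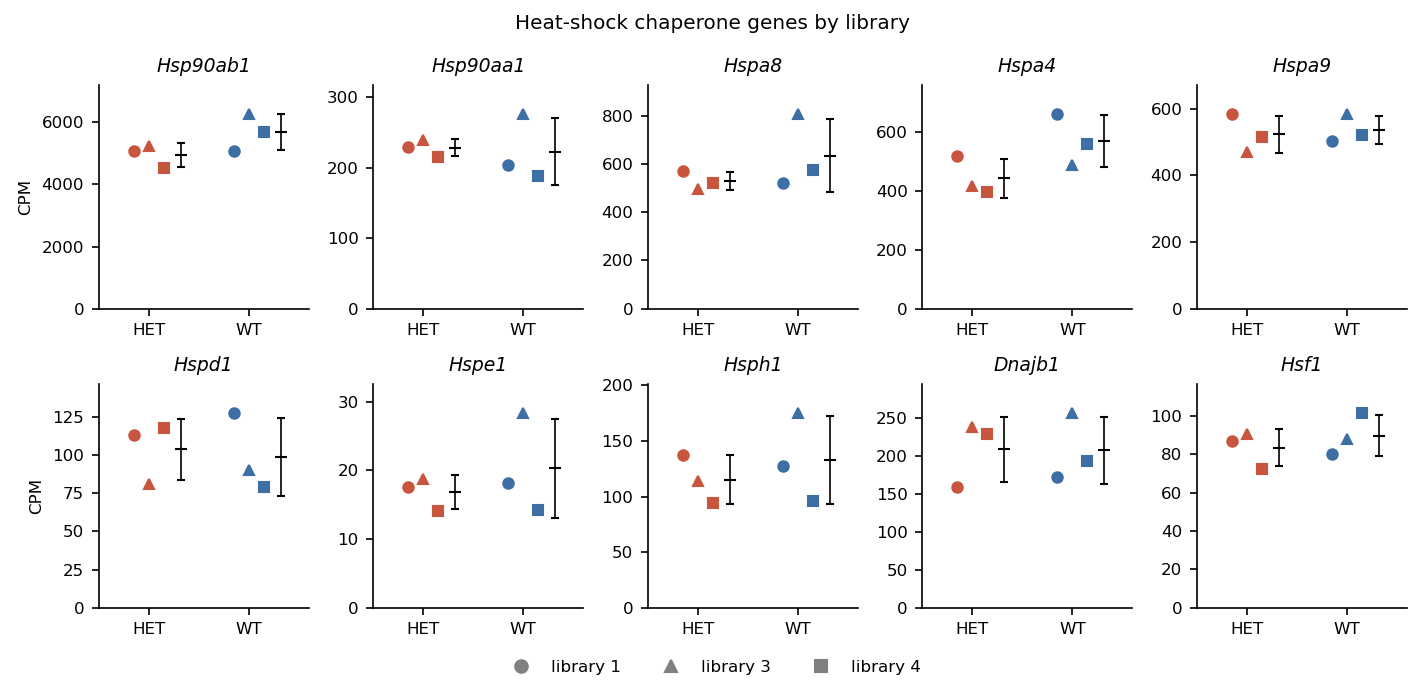
CPM of the 10 members in each library, HET in red on the left and WT in blue on the right of each panel, with the library number as the marker shape and black bars for mean ± SD (n = 3). The blue triangle, WT 3, is the highest point in 7 of the panels, and the groups overlap in all 10.

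The cytosolic HSP70 and HSP110 members were Hspa8, Hspa4 and Hsph1. Hspa8 encodes HSC70, the constitutive cytosolic HSP70 (ENSMUSG00000015656; chromosome 9, 40800984 to 40810087, plus strand). It measured 570, 497 and 523 CPM in HET 1, 3 and 4, against 521, 809 and 577 CPM in WT 1, 3 and 4. WT 3 stood above the other libraries, which lay close together. The log2 fold change was -0.26 ± 0.14 (SE, edgeR adjusted p = 0.958), and -0.05 without WT 3.

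Hspa4 encodes an HSP110-type protein that exchanges the nucleotide of HSP70 (ENSMUSG00000020361; chromosome 11, 53259814 to 53300457, minus strand). It had the smallest p of the members. It measured 518, 415 and 395 CPM in HET 1, 3 and 4, against 661, 486 and 559 CPM in WT 1, 3 and 4. HET 1 lay above WT 3, and all other HET values lay below all WT values. Relative to WT, HET stood at 77.9%, with a 95% interval of 64.8% to 93.5%. The log2 fold change was -0.36 ± 0.13 (SE), with an unadjusted p of 0.00997 and an edgeR adjusted p of 0.634. Without HET 1, the library that overlapped WT, the log2 fold change was -0.49 ± 0.12 (SE) and the edgeR adjusted p 0.0559. This was the smallest adjusted p of any member in any fit run, in the fit that called the most genes, 68 against 28 with all libraries. Over the fits that left out 1 library the log2 fold change of Hspa4 ranged from -0.49 to -0.24.

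Hsph1 encodes HSP105, the heat-inducible HSP110 protein (ENSMUSG00000029657; chromosome 5, 149614287 to 149636376, minus strand). It measured 138, 114 and 93.9 CPM in HET 1, 3 and 4, against 127, 175 and 96.1 CPM in WT 1, 3 and 4. The lowest values of the 2 groups, in HET 4 and WT 4, were nearly alike, and the highest was WT 3. The log2 fold change was -0.20 ± 0.20 (SE, edgeR adjusted p = 0.995) and 0.05 without WT 3.

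The remaining cytosolic and nuclear members were the J-domain protein and the transcription factor. Dnajb1 encodes the main heat-inducible HSP40, which delivers substrates to HSP70 (ENSMUSG00000005483; chromosome 8, 83608193 to 83612653, plus strand). It measured 159, 237 and 228 CPM in HET 1, 3 and 4, against 172, 256 and 193 CPM in WT 1, 3 and 4. In each group library 1 was the lowest and library 3 the highest. Hsf1, the gene of the heat-shock factor itself (ENSMUSG00000022556; chromosome 15, 76477422 to 76501913, plus strand), measured 86.8, 90.5 and 72.3 CPM in HET 1, 3 and 4, against 79.9, 87.6 and 101 CPM in WT 1, 3 and 4. The log2 fold changes were 0.00457 ± 0.17 for Dnajb1 and -0.11 ± 0.16 for Hsf1 (SE), with edgeR adjusted p-values of 0.9996 and 0.995. Their 95% intervals reached from 78.1% to 129% of the WT level for Dnajb1 and from 74.3% to 116% for Hsf1.

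Among the mitochondrial members, Hspa9 encodes mortalin, the HSP70 of the matrix (ENSMUSG00000024359; chromosome 18, 34937414 to 34954357, minus strand). It measured 584, 471 and 514 CPM in HET 1, 3 and 4, against 504, 585 and 523 CPM in WT 1, 3 and 4. The ranges of the groups overlapped widely (log2 fold change -0.04 ± 0.11 SE, edgeR adjusted p = 0.995). Its 95% interval reached from 83.2% to 114% of the WT level.

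Hspd1 encodes HSP60, the barrel of the chaperonin (ENSMUSG00000025980; chromosome 1, 55077835 to 55088243, minus strand). Hspe1 encodes its lid, HSP10 (ENSMUSG00000073676; chromosome 1, 55088132 to 55091307, plus strand). These genes stand head to head. The window of the second Hspd1 start overlaps the Hspe1 window printed above, whereas the printed Hspd1 window does not. Hspd1 measured 113, 80.9 and 117 CPM in HET 1, 3 and 4, against 127, 90.2 and 78.7 CPM in WT 1, 3 and 4. Hspe1 measured 17.7, 18.8 and 14.0 CPM in HET 1, 3 and 4, against 18.2, 28.4 and 14.3 CPM in WT 1, 3 and 4. The library order differed between the partners, since WT 3 was the highest for Hspe1 and WT 1 for Hspd1. The log2 fold changes were 0.07 ± 0.18 for Hspd1 and -0.28 ± 0.30 for Hspe1 (SE, edgeR adjusted p = 0.995 for both).

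On the log2 scale, Hspe1 over Hspd1 counts was -2.68, -2.11 and -3.06 in HET 1, 3 and 4, against -2.81, -1.67 and -2.46 in WT 1, 3 and 4. These ratios overlapped between groups, with a difference of -0.31 (exact two-sided permutation p = 0.6, and 0.6 adjusted over the 2 ratios). The difference was 0.02 without WT 3. Hspe1 rested on the fewest reads of the members, 178, 86 and 72 counts in HET 1, 3 and 4, against 101, 155 and 60 in WT 1, 3 and 4. In GENCODE M21 the exons of Hspd1 and Hspe1 overlap by 112 bases on opposite strands, and no source used here states whether counting used strand. Reads from those bases cannot be assigned with certainty to either gene.

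Transcript levels were compared between members per kb of exon (CPM divided by the exonic length in GENCODE M21). That length counts every base in an exon of any annotated transcript. It can exceed the length of the transcripts present, so the ranks between members depend on the annotation. The longest were Hsph1 (7.27 kb) and Hsf1 (7.10 kb). Hsp90ab1 stood far above the rest, at 1647 ± 125 in HET and 1895 ± 197 in WT (CPM per kb, SD, n = 3 each). It held 74.5% to 77.5% of the members' summed CPM per kb in HET and 75.4% to 78.1% in WT. Hspa8 followed with 123 ± 8.52 in HET and 148 ± 35.6 in WT, and Hspa9 with 121 ± 13.2 in HET and 125 ± 9.86 in WT. Hspa8 exceeded Hspa9 in 5 of 6 libraries, but their HET means lay within 1 SD. Hspa4, Dnajb1, Hsp90aa1 and Hspd1 came next, between 39.3 and 80.1 in HET and between 37.4 and 103 in WT. The order of Dnajb1 over Hsp90aa1 held in 5 of 6 libraries, and that of Hspa4 over Dnajb1 in 6 of 6. Hsph1 (15.9 in HET, 18.3 in WT), Hspe1 (11.4 and 13.8) and Hsf1 (11.7 and 12.6) were the lowest. Hspe1 exceeded Hsf1 in 2 of 6 libraries, so these neighbours did not differ beyond their spread. The 10 genes took 0.725% ± 0.0418 of all counts in HET and 0.810% ± 0.0669 in WT (SD, n = 3 each).

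**Figure D3:**
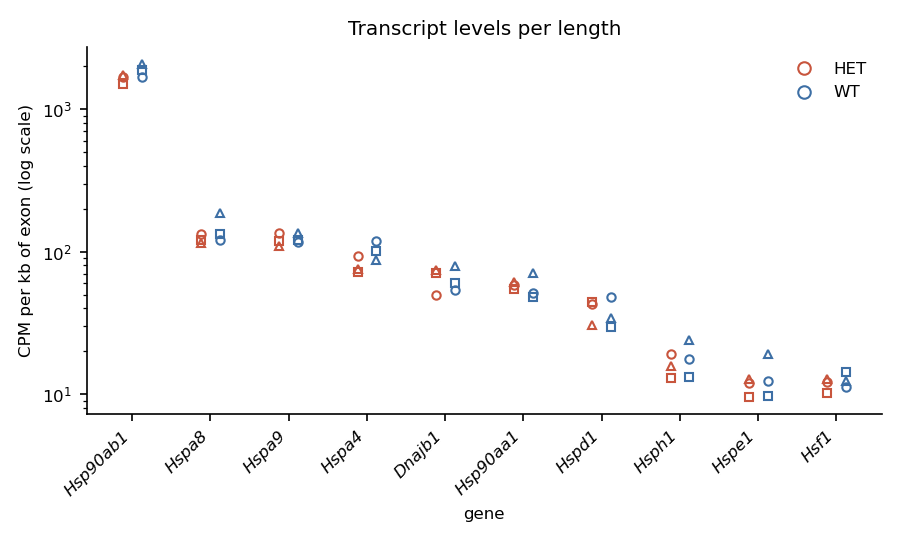
CPM per kb of exon on a log axis for the 10 members, HET in red left of WT in blue, 1 symbol per library (circle 1, triangle 3, square 4). Hsp90ab1 lies at 1508 or more in every library, and the other 9 members lie at 188.2 or less.

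Single libraries stood apart within the groups. WT 3 was the highest of the 6 libraries for 7 of the 10 (Hsp90ab1, Hsp90aa1, Hspa8, Hspa9, Hspe1, Hsph1 and Dnajb1), against 15.5% of all genes tested. HET 4 was the lowest for 5 of the 10, against 15.5% of all genes. Relative to each gene's mean over the 6 libraries, WT 3 lay at 0.64 for Hspe1, 0.53 for Hsph1, 0.49 for Hspa8 and 0.32 for Dnajb1 on the log2 scale. The median over the members was 0.03, -0.05 and -0.18 in HET 1, 3 and 4, against -0.06, 0.28 and -0.05 in WT 1, 3 and 4. Hspa4, Hspd1 and Hsf1 were not highest in WT 3, where they lay at -0.03, -0.14 and 0.03. This pattern was looked for after the values were seen and is a description.

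**Figure D4:**
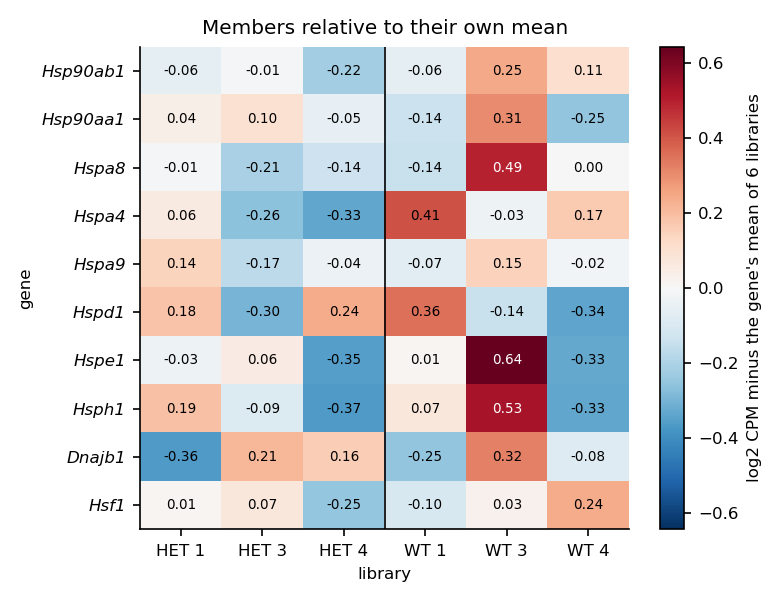
Log2 CPM of each member minus its own mean over the 6 libraries, libraries in columns with HET left of the line, members in rows, red above and blue below the mean. The WT 3 column is red for Hsp90ab1, Hsp90aa1, Hspa8, Hspa9, Hspe1, Hsph1 and Dnajb1 and pale or blue for Hspa4, Hspd1 and Hsf1.

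The stress-inducible cytosolic HSP70 genes, Hspa1a and Hspa1b, which are near silent in unstressed cells and are textbook HSF1 targets, separated WT 3 further. They were outside the 10 members and were chosen after their values were seen. Hspa1a had 0, 28 and 6 counts in HET 1, 3 and 4, against 2, 281 and 0 in WT 1, 3 and 4. Hspa1b had 0, 12 and 5 counts in HET 1, 3 and 4, against 1, 313 and 0 in WT 1, 3 and 4. Nearly all of their reads came from WT 3, with a small number in HET 3.

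Because the 2 genes are near-identical copies, their counts were also summed. The sum was 0, 8.72 and 2.14 CPM in HET 1, 3 and 4, against 0.541, 109 and 0 CPM in WT 1, 3 and 4. The exact 95% Poisson interval, which covers counting error only, was 100.1 to 117.8 CPM in WT 3 and 6.23 to 11.9 CPM in HET 3. For the 0 counts the upper end of this interval was 0.366 CPM in HET 1 and 0.880 CPM in WT 4. Among 7857 genes with at least 100 counts in WT 3, Hspa1b and Hspa1a exceeded the highest other library by the most, 21.9-fold and 8.42-fold. Low counts in the other libraries removed both from the edgeR fit, and with no filter their adjusted p was 0.998.

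**Figure D5:**
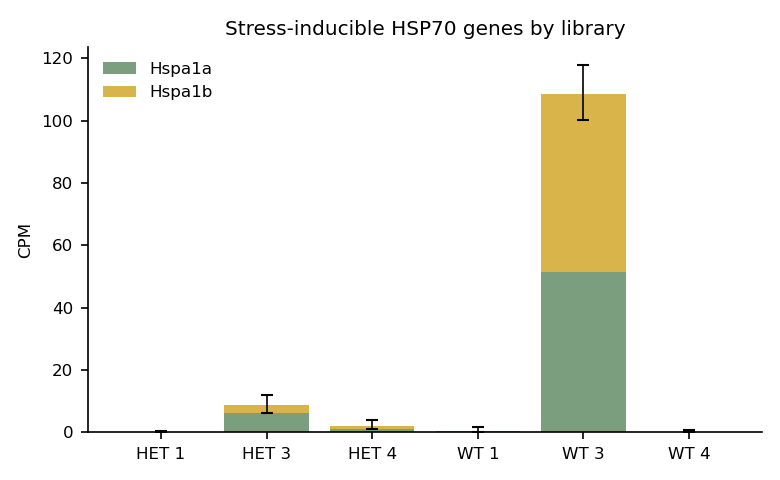
CPM of Hspa1a (green) and Hspa1b (yellow), stacked, in each library, with exact 95% Poisson intervals of the sum as bars. WT 3 reaches 109 CPM, HET 3 8.72 CPM, and the other libraries lie at or below 2.14 CPM.

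Other values also stood high in WT 3. Summed over 14 tested immediate early genes, CPM reached 5877, 9014 and 6736 in HET 1, 3 and 4, against 6752, 10042 and 9189 in WT 1, 3 and 4. WT 3 was the highest library for 5 of these 14 and HET 3 for 4, against 15.5% and 18.4% of all genes. Of that list 2 genes passed in edgeR, Btg2, highest in WT 1 (193 CPM), and Junb, highest in WT 4 (755 CPM). Btg2, an antiproliferative gene, fell to 76.9 ± 17.1 CPM in HET, against 188 ± 5.55 CPM in WT (SD, n = 3 each, edgeR adjusted p = 0.000168). Junb, a subunit of AP-1, fell to 352 ± 69.0 CPM in HET, against 725 ± 26.8 CPM in WT (SD, n = 3 each, edgeR adjusted p = 0.000195). The neutrophil genes S100a9 and S100a8 were at 203 and 57.4 CPM in WT 3, and the highest values elsewhere were 92.4 and 26.5 CPM in HET 1. WT 3 was the highest library for 6 of the 9 listed neutrophil and monocyte markers. Of the other 3, Itgam and Ctsg were lowest in WT 3, at 6.95 and 1.10 CPM, and Mpo was at 31.3 CPM in WT 3, within the 6.63 to 126 CPM of the other libraries. The part of immediate early activity or of neutrophil RNA in the chaperone values was not tested. S100a9 and S100a8 were also named after their values were seen.

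The rest of the chaperone network was described from 9 lists, some of which also hold members. Outside the members they held 82 tested genes, of which 0 passed in edgeR, 3 had an unadjusted p under 0.05, and 9 had groups that did not overlap, a share near the 10.3% of all genes. DESeq2 and limma-voom also called 0 of them. Of the 5 tested cytosolic HSP70 and HSP110 genes 3 are members. All 5 had negative fold changes, with a median of -0.26, beside 0.00397 over all genes. Without WT 3, 4 of the 5 were negative, with a median of -0.21. Hspa2, an HSP70 best known from the testis, measured 22.1, 23.6 and 16.8 CPM in HET 1, 3 and 4, against 22.0, 33.8 and 40.8 CPM in WT 1, 3 and 4 (log2 fold change -0.62 ± 0.27 SE, edgeR adjusted p = 0.844).

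Of 18 J-domain proteins of the cytosol and nucleus, 10 had negative and 8 positive fold changes, with a median of -0.07. Dnajb4, a cytosolic partner of HSP70, had the smallest p of the network. It measured 56.2, 60.2 and 53.2 CPM in HET 1, 3 and 4, against 77.0, 84.3 and 76.3 CPM in WT 1, 3 and 4. All HET values lay below all WT values, with a log2 fold change of -0.49 ± 0.16 (SE), an unadjusted p of 0.00653 and an edgeR adjusted p of 0.526. Dnajb6, which suppresses protein aggregation, measured 70.5, 31.2 and 27.7 CPM in HET 1, 3 and 4, against 90.7, 71.0 and 57.0 CPM in WT 1, 3 and 4. HET 1 overlapped the WT range (log2 fold change -0.74 ± 0.36 SE, edgeR adjusted p = 0.957). Without HET 1 the value was -1.31 ± 0.22 (SE) and the edgeR adjusted p 0.00172, the sole call of a listed chaperone gene in any fit run. HET 1 was the library that overlapped WT, so leaving it out separates the groups by construction. That fit also called the most genes of any, 68 of 11047, against 28 of 10869 with all libraries. For Dnaja4, a cytosolic J-domain protein, the log2 value was -0.54 ± 0.27 (SE), and its highest level, 50.9 CPM, was in WT 3.

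The 9 HSP70 exchange factors and ligases had a median of -0.07. Bag6, which guards membrane proteins in the cytosol, lay between 349 and 357 CPM in HET and between 370 and 421 CPM in WT, without overlap (log2 fold change -0.15 ± 0.11 SE, edgeR adjusted p = 0.995). Bag3, a known HSF1 target, measured 42.6, 40.3 and 37.2 CPM in HET 1, 3 and 4, against 43.3, 58.7 and 38.9 CPM in WT 1, 3 and 4, so that WT 3 was again the highest. The 18 HSP90 cochaperones had a median of -0.03. Fkbp5, a cochaperone of steroid receptors and a glucocorticoid target, measured 190, 150 and 139 CPM in HET 1, 3 and 4, against 142, 120 and 111 CPM in WT 1, 3 and 4. HET 4 lay just below WT 1, and the log2 fold change was 0.36 ± 0.14 (SE, unadjusted p = 0.0199, edgeR adjusted p = 0.792). Nudc and Ptges3 had -0.21 ± 0.12 and -0.27 ± 0.22 (SE).

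The 19 tested mitochondrial chaperones and proteases had a median of 0.02, with 10 positive and 9 negative values. Lonp1, a matrix protease, measured 174, 176 and 150 CPM in HET 1, 3 and 4, against 178, 205 and 184 CPM in WT 1, 3 and 4, without overlap (log2 fold change -0.18 ± 0.12 SE, edgeR adjusted p = 0.995). The 11 tested subunits of the cytosolic chaperonin TRiC and of prefoldin had a median of -0.03, and Cct4 had the smallest p (log2 fold change -0.20 ± 0.12 SE, edgeR adjusted p = 0.980). Small heat-shock proteins, which hold unfolded chains without ATP, gave few reads. Hspb1 (HSP27) had 2, 8 and 0 counts in HET 1, 3 and 4, against 0, 0 and 8 in WT 1, 3 and 4, and Cryab, the gene of alpha-B-crystallin, had 3, 0 and 2 counts in HET, against 11, 2 and 12 in WT. The 3 tested genes of that list, taken by symbol and not checked for this activity, had a median of -0.32. Of them Hspb11, with the smallest p, lay between 4.80 and 6.63 CPM in HET and between 6.13 and 15.3 CPM in WT (edgeR adjusted p = 0.957). The 4 tested heat-shock factors and binding proteins had a median of -0.06. Hsf2bp, a binding partner of HSF2, lay between 3.05 and 4.29 CPM in HET and between 1.43 and 2.74 CPM in WT, without overlap (log2 fold change 0.93 ± 0.70 SE, edgeR adjusted p = 0.995). Of the 17 tested genes listed as heat-inducible HSF1 targets, of which 7 are members, 9 were negative and 8 positive, with a median of -0.03 (0.02 without WT 3). The list also holds Hsp90ab1 and Hspa8, described above as constitutive forms. WT 3 was the highest library for 9 of these 17, against 15.5% of all genes tested. Most of the 9 are members already counted above, among them Hsp90ab1, Hspa8 and Hspe1. This count therefore largely repeats the count over the members and adds no separate support to it.

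The pooled within-group SD of log2 CPM differed among the members, with 0.13 for Hsp90ab1 and 0.14 for Hspa9 at the low end and 0.36 for Hsph1 and 0.38 for Hspe1 at the high end. The biological coefficient of variation, the fitted variation beyond counting error, was 12.9% to 17.5% for 9 of them and 25.1% for Hspe1, beside a median of 18.5% over all genes. Within WT the SD of log2 CPM was 0.33 for Hspa8 and 0.30 for Hsp90aa1, and within HET it was 0.10 and 0.08. WT 3 was the highest WT library for both genes. This difference in spread was not shared by all members. The SD was larger within HET for Hspa9 (0.16, against 0.11 in WT) and Dnajb1 (0.32, against 0.30 in WT), the only members where it was. For Hsf1 it was 0.17 in each group. The 5 genes whose centred log2 profile over the 6 libraries lay nearest to that of Hsp90ab1 were Pank4, Pitrm1, Lonp1, Dhx37 and Deaf1, at root mean square distances of 0.0373 to 0.0476 log2 units.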

How the data were processed

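The authors deposited whole-number read counts per gene for 6 RNA-seq libraries. Per the submitters' processing notes, the tools included STAR 2.5.2b, FastQC, limma and edgeR, and the build was mm10; the notes give them no role or order. The sources used here name no read counter, strand setting or annotation. The protocol fields attached to the samples describe biopsies from patients, not these mice, and were not used. Groups came from the genotype label and library numbers from the titles.

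Counts were fitted across all genes with edgeR 4.0.16 (R 4.3.3): filterByExpr (which removed 910 genes), TMM scaling, robust quasi-likelihood F test, two-sided, group as the only term, and Benjamini-Hochberg adjustment over 10869 genes at 0.05. Standard errors were derived from the F statistic, and 95% intervals from its degrees of freedom. Levels are CPM on the scaled library size, and centred log2 CPM used a prior count of 2. Gene positions and exonic lengths were taken from GENCODE M21 (GRCm38, which is mm10) and matched all 127 listed genes present in the table. BLAST of the members' longest coding transcripts against that set (at least 95% identity over 100 bases) found other genes for Hspa8 (6), Hsp90aa1 (3), Hspd1 (3) and Hspe1 (2, Hspd1 among them). Their counts are uncertain to that extent. Alternatives were other scalings and filters, DESeq2 1.42.0, limma-voom (limma 3.58.1), a replicate block and leaving out each library. The script was tested on simulated counts. The members and lists were chosen with earlier results of these data known. Named genes were the members, the 3 genes at most with the smallest p in each list, and the 5 nearest profiles of Hsp90ab1 and Dnajb1. The profiles nearest to Dnajb1 are not reported here. Others named, among them Hspa1a, Hspa1b, S100a8, S100a9, Hspb1 and Cryab, were chosen after their values were seen.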

Additional observations from a re-analysis of the deposited data

How the results depend on the processing

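Of 130 member values under 13 alternatives, 117 kept their direction, 13 changed sign and 0 passed the threshold, so 0 members were called in any fit. The changes of sign were in 6 members, among them Hspe1 and Hsph1 without WT 3. Dnajb1 was -0.038 with limma-voom, and the values over the fits that left out 1 library ran from -0.12 to 0.19 for Dnajb1, -0.070 to 0.22 for Hsp90aa1, -0.13 to 0.032 for Hspa9, -0.065 to 0.30 for Hspd1, -0.47 to 0.045 for Hspe1 and -0.39 to 0.046 for Hsph1. The Hspe1 to Hspd1 difference ran from -0.56 to 0.016 and the members' median from -0.21, without WT 1, to 0.02, without WT 3. The count of genes called over the whole table was 28, 59 with DESeq2, 49 with the library number as a replicate block, and 10 to 68 when 1 library was left out (68 without HET 1, 10 without HET 4 and 11 without WT 1). The cause was not tested. Whether the library numbers pair samples is not stated. Deviations from the group mean in same-numbered libraries correlated at 0.112, -0.0435 and 0.0720 for numbers 1, 3 and 4. HET 1 correlated best with WT 1, and HET 3 and HET 4 both with WT 4. With 3 libraries per group these values cannot decide whether samples were paired. The block changed no call of a member. Hspe1 had the fewest counts of the members and the widest interval, 53.3% to 128% of the WT level, and also the largest variation beyond counting error, 25.1%.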

Other observations

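Chaperones outside the heat-shock group varied between single HET libraries. For the 11 tested TRiC and prefoldin subunits, HET 3 was the lowest of the 6 libraries in 9, against 18.4% of all genes. HET 1 was the highest in 5, against 17.7%, and WT 3 in 4, against 15.5%. The median of their centred log2 levels stood at 0.12, -0.21 and -0.09 in HET 1, 3 and 4, against -0.03, 0.13 and -0.04 in WT 1, 3 and 4. Cct5 measured 715, 588 and 599 CPM in HET 1, 3 and 4, against 644, 721 and 686 CPM in WT 1, 3 and 4. The 15 chaperones of the endoplasmic reticulum had 10 negative and 5 positive fold changes, a median log2 fold change of -0.07, and 0 calls in edgeR, DESeq2 or limma-voom, with 0 at an unadjusted p under 0.05. HET 1 was the highest library for 7 of them, WT 3 for 5, and HET 3 the lowest for 8, beside the shares of all genes given above. These counts are a description. Hspa5 (BiP), the HSP70 of that compartment, measured 616, 517 and 625 CPM in HET 1, 3 and 4, against 624, 740 and 572 CPM in WT 1, 3 and 4. Of these 15, Dnajb9 and Dnajb11 alone had groups that did not overlap, a share near the 10.3% of all genes. They encode J-domain partners of BiP, and their directions were opposite. A further J-domain gene of the list, Dnajc3, overlapped between groups (log2 fold change -0.04 ± 0.17 SE, edgeR adjusted p = 0.995). Dnajb9 was 51.7 ± 5.19 CPM in HET and 66.1 ± 6.08 CPM in WT (SD, n = 3 each). Dnajb11 was 93.1 ± 18.5 CPM in HET and 78.1 ± 1.62 CPM in WT (SD, n = 3 each). The edgeR adjusted p-values were 0.952 and 0.994.

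Single genes stood out in other libraries too. Among genes with at least 100 counts in the library, Epb4.1l4b reached 2860 CPM in WT 1 against at most 121 CPM elsewhere, and Ept1 344 CPM in WT 4 against at most 35.3 CPM. In HET the farthest were Nlrp1b in HET 3, 4.12-fold above the highest other library, and Mir6240 in HET 4, 4.01-fold above it.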
